A study of Mus musculus with 6 samples.

Results

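The genes described here are 10 components of Toll-like receptor recognition in mouse aortic smooth muscle cells (MASMCs): the receptors Tlr1, Tlr2, Tlr3, Tlr4, Tlr5 and Tlr6, the adaptors Myd88 and Ticam1, and the co-receptors Cd14 and Ly96. They were picked by gene symbol, with earlier results of these data known. All 10 were found among the 54532 genes of the deposited table. RNA-seq was performed on 6 libraries of MASMCs, 3 labelled Ad-Con (an adenoviral vector with a control plasmid, genotype label WT) and 3 labelled Ad-PDK4 (an adenoviral vector with a plasmid for overexpression of pyruvate dehydrogenase kinase 4, the mitochondrial enzyme that restrains pyruvate dehydrogenase). Per the study's text, the cells were passaged primary cultures from the abdominal aorta of mice, and both groups had also received angiotensin II (Ang II), the hormone used in that study to model aneurysm. Both groups thus carried an adenovirus and Ang II, and no library without virus or without Ang II was part of the comparison. The comparison asks what changed in the cells under the PDK4 vector, and here it is read for the receptors that sense microbial molecules and nucleic acids.

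Toll-like receptors are membrane proteins that bind conserved microbial molecules or products of damaged cells and pass the signal on through adaptors that carry a TIR domain. Most of them use MyD88, which leads to NF-kB and inflammatory cytokines. TLR3 uses TRIF, the product of Ticam1, which leads to IRF3 and type I interferon, and TLR4 can use both. These receptors are best known from macrophages and dendritic cells, but cells of the vessel wall also carry several of them.

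The levels are given as FPKM, the number of read fragments per kilobase of gene length. They are scaled by a library size that the authors had adjusted between libraries by the median of ratios. Being per length, FPKM can be compared between genes as far as the lengths used match the transcripts present. Between 17588942 and 21861872 reads per library lay behind these values, and a single read in a gene of 1 kilobase stood for 0.0453 to 0.0571 FPKM. Pdk4, the mouse gene of the kinase that the vector was meant to raise, was not higher under the overexpression label: its level was 9.50, 10.4 and 10.1 FPKM in the Ad-Con libraries and 7.67, 7.40 and 7.38 FPKM in the libraries labelled Ad-PDK4, a log2 fold change of -0.42 (adjusted p = 1.1e-03). For its PDK4 plasmid the study's methods give a primer pair that its supplement lists under mouse PDK4. Whether the adenoviral vector carried the same insert is not stated. The reads counted under mouse Pdk4 thus do not bear out the overexpression label, and the reason was not tested. Every direction below is one between libraries labelled Ad-PDK4 and libraries labelled Ad-Con. Of 10 smooth muscle markers, 5 had a mean of at least 0.5 FPKM over the 6 libraries and 5 did not. Myh11 and Tagln were close to absent, with 2 to 10 and 4 to 20 reads in any library. Mylk, Cnn1 and Des, also under that minimum, were lower in every Ad-PDK4 library than in every Ad-Con library. Cald1 was at 56.0 FPKM in Ad-Con and 71.9 FPKM in Ad-PDK4, and Tpm2 at 27.8 and 22.1 FPKM. Acta2, the smooth muscle actin, was at 78.0 ± 0.950 FPKM in Ad-Con and 36.2 ± 2.40 FPKM in Ad-PDK4 (mean ± SD, n = 3 each). In bulk RNA, fewer cells of a type and less RNA per cell cannot be told apart, which holds for every value given here.

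The upstream sequences of both adaptors and of the 2 receptors that rose are shown. The receptors shown are thus those that passed the test given below. The adaptors are shown whether or not they passed, and Ticam1 did not. Cd14, a co-receptor that rose, had no searched window. Windows were searched for 7 of the 10 genes. Each run is the 250 bases before a RefSeq transcription start on GRCm38.p6, written 5′ to 3′ on the gene's own strand, all on the minus strand. The positions are chr3:83841609-83841858 for Tlr2, chr8:45410381-45410630 for Tlr3, chr9:119340019-119340268 for Myd88 and chr17:56276768-56277017 for Ticam1. Capitals mark matches to an NF-kB core (GGGNNNNNCC), an interferon-stimulated response element core (ISRE, GAAANNGAAA) or a gamma-activated site (GAS, TTCNNNGAA), searched on both strands.
Tlr2: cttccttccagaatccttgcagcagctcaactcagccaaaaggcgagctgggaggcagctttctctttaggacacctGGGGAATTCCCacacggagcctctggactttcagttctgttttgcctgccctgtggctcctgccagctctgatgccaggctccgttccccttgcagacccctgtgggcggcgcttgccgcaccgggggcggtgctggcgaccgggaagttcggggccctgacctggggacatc
Tlr3: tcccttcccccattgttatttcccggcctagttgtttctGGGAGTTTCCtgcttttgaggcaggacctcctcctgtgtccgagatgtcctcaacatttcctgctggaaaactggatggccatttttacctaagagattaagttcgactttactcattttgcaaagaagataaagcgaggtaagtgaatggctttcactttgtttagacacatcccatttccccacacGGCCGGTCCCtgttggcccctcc
Myd88: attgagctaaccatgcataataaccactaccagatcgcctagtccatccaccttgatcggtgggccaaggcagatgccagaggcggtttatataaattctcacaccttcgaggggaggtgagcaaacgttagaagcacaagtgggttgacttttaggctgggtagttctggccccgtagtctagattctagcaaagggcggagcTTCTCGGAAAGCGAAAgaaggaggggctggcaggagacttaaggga
Ticam1: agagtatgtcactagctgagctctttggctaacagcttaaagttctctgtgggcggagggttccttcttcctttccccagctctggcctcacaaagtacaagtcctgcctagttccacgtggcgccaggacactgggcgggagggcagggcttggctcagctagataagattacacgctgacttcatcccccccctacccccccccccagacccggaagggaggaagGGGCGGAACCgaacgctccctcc

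The Tlr2 window held overlapping NF-kB core matches in the stretch GGGGAATTCCC, 173 to 163 bases before the start. The Tlr3 window held NF-kB core matches 211 to 202 and 23 to 14 bases before the start, the latter on the opposite strand. In the Myd88 window an ISRE core, GAAAGCGAAA, lay 40 to 31 bases before the start and overlapped a GAS, TTCTCGGAA, at 46 to 38. The Ticam1 window held 1 NF-kB core match, 23 to 14 bases before the start. Of the windows not printed, that of Tlr5 had 1 NF-kB core match, 1 window of Tlr6 had 2 overlapping ISRE core matches and another 1 NF-kB core match, and 1 window of Tlr1 had a GAS. Among all 32851 RefSeq windows of this length, 45.8% held the NF-kB core, 2.98% the ISRE core and 7.02% the GAS, so the NF-kB core is common by its letters alone. All 4 printed windows overlap the gene spans of the deposited table, by 250 of 250 bases for Tlr3 and Myd88, 159 for Tlr2 and 19 for Ticam1.

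Of the 10 genes, Tlr3, Tlr2, Myd88 and Cd14 rose in the Ad-PDK4 libraries, Tlr4, Tlr5, Ticam1 and Ly96 did not pass the test in either direction, and Tlr1 and Tlr6 were too low to be tested. A gene was tested where its mean over the 6 libraries was at least 0.5 FPKM, which held for 8 of the 10, and it passed at an adjusted p below 0.05. The 4 rises among 8 tested genes stand beside 21.8% of all 13423 tested genes that rose. Since the genes were chosen with earlier results known, this count is a description and no test. None of the 8 fell by limma, at an unadjusted p below 0.05 (0 genes) or by limma-voom on the recovered reads (0 genes), beside 20.8% of all genes that fell. When a 2-fold change was required in addition, 1 of the 8 rose, which was Tlr3, and 0 fell, beside 3.95% and 2.68% of all genes. The libraries of the 2 groups did not overlap for 5 of the 8, beside 54.3% of all tested genes, a share close to the background. The median log2 fold change of the 8 was 0.31, beside -0.003 over all tested genes. No member was at 0 reads in any library. The p-values measure the spread between these libraries, which the study calls biological replicates, while the labels do not name separate cultures or animals.

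**Figure D1:**
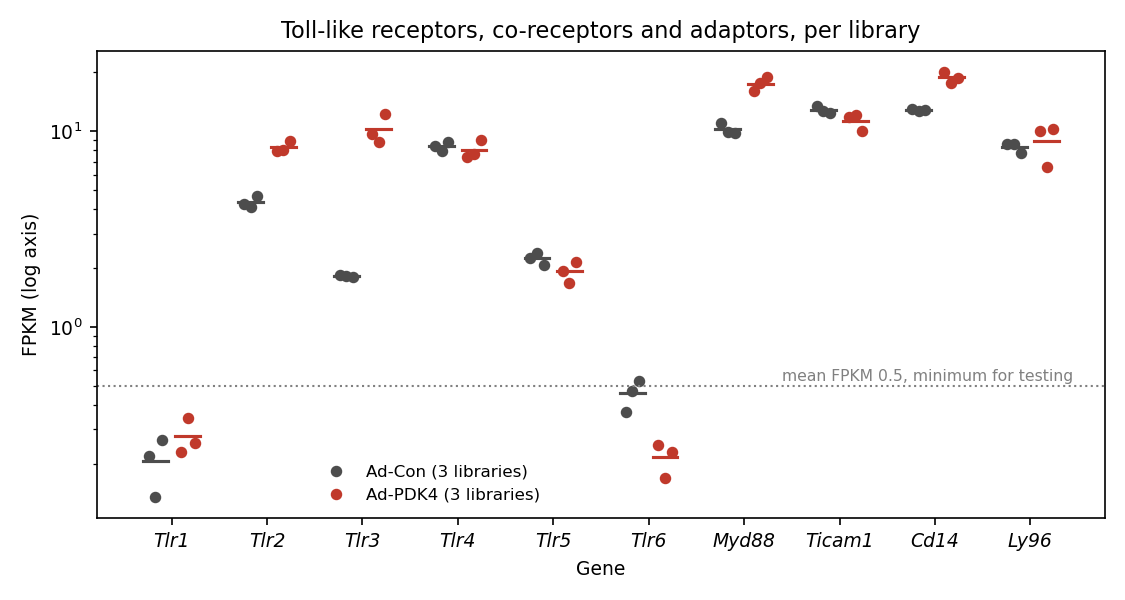
Level of each gene in FPKM (log axis) in each of the 6 libraries, with Ad-Con in grey and Ad-PDK4 in red; short bars are group means and the dotted line is the mean of 0.5 FPKM needed for testing. Tlr2, Tlr3, Myd88 and Cd14 lie higher in all 3 Ad-PDK4 libraries, Tlr4, Tlr5 and Ly96 overlap between groups, and Tlr1 and Tlr6 lie mostly below the line.

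Tlr3 encodes the endosomal receptor for double-stranded RNA, a product of many replicating viruses, and it changed most among the members. The gene lies at chromosome 8, 45395665 to 45411080 on GRCm38, minus strand. Its level was 1.84, 1.82 and 1.801 FPKM in the Ad-Con libraries and 9.66, 8.81 and 12.3 FPKM in the Ad-PDK4 libraries. The control libraries were nearly identical, the Ad-PDK4 libraries were all several times higher, and replicate 3 was the highest of them. In reads this was 195, 166 and 170 against 915, 803 and 1415. The log2 fold change was 2.42 with a standard error of 0.12 and a 95% interval of 2.14 to 2.70 (adjusted p = 4.2e-06), and the ratio of mean FPKM was 5.64. An antisense gene, Gm45542, shares 7.32% of the exonic bases of Tlr3 and had 0 reads in all libraries.

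The genes whose pattern over the 6 libraries lay closest to that of Tlr3, out of 13422 compared, were Ube2l6, Trim34a, Irgm1, Slfn5 and A230050P20Rik. Likeness was the Euclidean distance between log2(FPKM + 0.1) profiles centred on their means. A small distance requires a rise of nearly the same size, so the log2 fold changes given below were set by this choice. The scatter could differ: in Ad-PDK4 it was 10.3 ± 1.82 FPKM for Tlr3 and 8.68 ± 0.266 FPKM for A230050P20Rik (mean ± SD). The distances were 0.253 for Ube2l6, 0.320 for Trim34a, 0.332 for Irgm1, 0.342 for Slfn5 and 0.351 for A230050P20Rik. Ube2l6 encodes the conjugating enzyme for the ubiquitin-like protein ISG15, and Irgm1 is an interferon-inducible GTPase. Their log2 fold changes were 2.44 for Ube2l6, 2.22 for Trim34a, 2.33 for Irgm1, 2.34 for Slfn5 and 2.38 for A230050P20Rik. Ube2l6 was expressed at another level, 20.0 ± 0.686 FPKM in Ad-Con and 109 ± 6.15 FPKM in Ad-PDK4, with a rise of nearly the same size.

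Tlr2 encodes the cell surface receptor for bacterial lipoproteins, which works as a pair with TLR1 or TLR6. It lies at chromosome 3, 83836272 to 83841767, minus strand. Its level was 4.27, 4.08 and 4.69 FPKM in Ad-Con and 7.89, 8.0003 and 8.92 FPKM in Ad-PDK4, with no overlap between groups. This was a log2 fold change of 0.91 with a standard error of 0.08 and a 95% interval of 0.72 to 1.10 (adjusted p = 9.0e-05). The ratio of mean FPKM was 1.90, just under the 2-fold limit. Tlr2 and Tlr3 are in the gene set that the study lists for pyroptosis.

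The partners of TLR2 on the cell surface were close to the floor. Tlr6, which pairs with TLR2 for diacylated lipoproteins, had 28, 31 and 36 reads in the Ad-Con libraries and 17, 11 and 19 reads in the Ad-PDK4 libraries. These are 0.369, 0.474 and 0.533 FPKM against 0.251, 0.169 and 0.231 FPKM, lower in every Ad-PDK4 library. The summed reads were 95 (exact Poisson 95% interval 76.9 to 116) and 47 (34.5 to 62.5), and the intervals cover counting error only. A two-sided exact permutation test gave p = 0.1, the smallest that 3 against 3 allows, and a fit without the filter on low values gave a log2 fold change of -0.82 (adjusted p = 0.065). Tlr1, which pairs with TLR2 for triacylated lipoproteins, had 15, 8 and 16 reads in Ad-Con and 14, 20 and 19 reads in Ad-PDK4. Its groups overlapped, with summed reads of 39 (27.7 to 53.3) and 53 (39.7 to 69.3) and an exact permutation p = 0.3, so no difference was detectable at this depth. Tlr1 and Tlr6 are neighbours on chromosome 5, minus strand, at 64924679 to 64933563 and 64952031 to 64960097, with 18467 bases between them. No stretch of at least 75 bases at 98% identity is shared between their exons.

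Tlr4, the receptor for bacterial lipopolysaccharide, was the most abundant of the 6 receptors in Ad-Con and did not pass the test. Its level was 8.42, 7.93 and 8.77 FPKM in Ad-Con and 7.35, 7.65 and 9.07 FPKM in Ad-PDK4. The Ad-PDK4 libraries spread over both sides of the controls, with replicate 3 the highest of all 6. The log2 fold change was -0.07, and its 95% interval of -0.27 to 0.14 leaves room for a modest change either way (adjusted p = 0.59). Tlr4 lies at chromosome 4, 66827584 to 66930284, plus strand.

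Tlr5, the receptor for bacterial flagellin, was at 2.26, 2.39 and 2.08 FPKM in Ad-Con and at 1.93, 1.68 and 2.15 FPKM in Ad-PDK4. Ad-PDK4 replicate 3 lay within the control range and the other two below it. Its log2 fold change was -0.22 with a 95% interval of -0.50 to 0.07 (adjusted p = 0.19). The gene lies at chromosome 1, 182954788 to 182976044, plus strand.

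The make-up of receptor RNA therefore differed between the groups. The summed level of Tlr1 to Tlr6 was 17.4, 16.8 and 18.1 FPKM in Ad-Con and 27.3, 26.7 and 32.9 FPKM in Ad-PDK4. Tlr4 made up 48.0 ± 0.728% of that sum in Ad-Con and 27.7 ± 0.911% in Ad-PDK4, while Tlr3 made up 10.4 ± 0.448% and 35.3 ± 2.15% (mean ± SD, n = 3 each). The share of Tlr2 was 24.9 ± 0.837% and 28.7 ± 1.48%. Tlr4 thus had the highest share in all 3 Ad-Con libraries and Tlr3 in all 3 Ad-PDK4 libraries. These shares rest on the lengths used for FPKM, 5556 bases for Tlr4 and 5207 for Tlr3. Their longest transcripts have 4077 and 4407 bases, and shares at those lengths were not computed. In Ad-PDK4 replicate 2 the shares of Tlr3 and Tlr4 were closest, at 33.1% and 28.7%. A share falls when another member rises: the share of Tlr5 was 12.9 ± 1.35% and 6.64 ± 0.383%, although its level did not pass the test. Tlr6 made up 2.63 ± 0.439% and 0.7504 ± 0.149%, and Tlr1 1.18 ± 0.332% and 0.968 ± 0.273%.

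**Figure D2:**
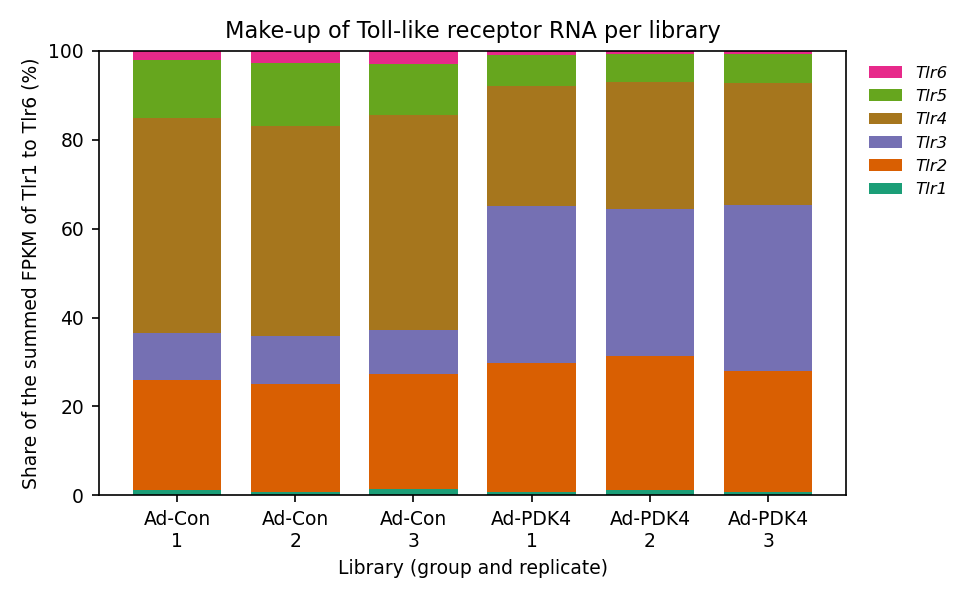
Share of each receptor (percent) in the summed FPKM of Tlr1 to Tlr6, with 1 stacked bar per library. Tlr4 holds 48.0% on average in the 3 Ad-Con libraries and 27.7% in the 3 Ad-PDK4 libraries, and Tlr3 holds 10.4% and 35.3%.

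The co-receptors that hand lipopolysaccharide to TLR4 did not move alike. Cd14 encodes the membrane-anchored protein that binds lipopolysaccharide and also serves TLR2. Its level was 13.0, 12.6 and 12.9 FPKM in Ad-Con and 20.1, 17.7 and 18.8 FPKM in Ad-PDK4, with all Ad-PDK4 libraries above all controls. On the log2 scale Cd14 rose by 0.55 with a standard error of 0.06 and a 95% interval of 0.41 to 0.69 (adjusted p = 2.7e-04), a ratio of means of 1.47. Cd14 had the highest mean of the members in both groups. Its range overlapped that of Ticam1 in Ad-Con and that of Myd88 in Ad-PDK4.

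Ly96 encodes MD-2, the protein bound to the outer part of TLR4 that forms the lipopolysaccharide pocket. Its level was 8.61, 8.59 and 7.78 FPKM in Ad-Con and 10.0, 6.55 and 10.3 FPKM in Ad-PDK4. Ad-PDK4 replicate 2 lay below all controls and the other two above them. The log2 fold change was 0.08 with a 95% interval of -0.33 to 0.48 (adjusted p = 0.75). This value rests on single libraries: without Ad-PDK4 replicate 2 it was 0.28 (adjusted p = 0.018), without Ad-PDK4 replicate 1 it was -0.019 and without Ad-PDK4 replicate 3 it was -0.038. Behind it lay 117 to 232 reads per library. Ly96 lies at chromosome 1, 16688051 to 16709611, plus strand.

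The adaptors differed from each other as well. Myd88, the adaptor of most Toll-like receptors and of the interleukin-1 receptor family, was at 11.0, 9.95 and 9.74 FPKM in Ad-Con and at 16.0, 17.6 and 18.9 FPKM in Ad-PDK4. All Ad-PDK4 libraries were above all controls. Myd88 rose by a log2 fold change of 0.77 with a standard error of 0.08 and a 95% interval of 0.58 to 0.95 (adjusted p = 1.8e-04), a ratio of means of 1.71. Myd88 lies at chromosome 9, 119335934 to 119341411, minus strand.

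Myd88 shares its locus with other genes, and whether the authors' counting used strand is not given in the sources used here. Acaa1a, a peroxisomal thiolase gene on the opposite strand, covers 11.3% of the exonic bases of Myd88. The level of Acaa1a was 32.3 ± 0.432 FPKM in Ad-Con and 34.8 ± 2.54 FPKM in Ad-PDK4, a log2 fold change of 0.10 (adjusted p = 0.21). Myd88 also lies inside the span of Slc22a14 on the same strand, with 0 exonic bases in common. Slc22a14 had 16 to 18 reads in the Ad-Con libraries and 42 to 47 in the Ad-PDK4 libraries, against 450 to 579 and 751 to 1073 reads for Myd88. The part of these neighbours in the value of Myd88 was not tested.

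Ticam1, which encodes TRIF, the only adaptor of TLR3, was at 13.4, 12.7 and 12.3 FPKM in Ad-Con and at 11.8, 12.1 and 10.0 FPKM in Ad-PDK4. All Ad-PDK4 libraries lay below all controls, by little. The log2 fold change was -0.18 with a 95% interval of -0.37 to 0.01 (adjusted p = 0.11). After quantile normalization it was -0.25 and passed the test (adjusted p = 0.040), and in the other alternatives tried it did not pass. Ticam1 lies at chromosome 17, 56269319 to 56276786, minus strand. The level of Myd88 divided by that of Ticam1 was 0.825, 0.784 and 0.790 in Ad-Con and 1.35, 1.46 and 1.88 in Ad-PDK4, so the order of the adaptors was reversed between the groups in every library.

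Ratios to Tlr4 show how far each gene moved away from the lipopolysaccharide receptor. Tlr2 divided by Tlr4 was 0.519 ± 0.0141 in Ad-Con and 1.03 ± 0.0462 in Ad-PDK4, and Cd14 divided by Tlr4 was 1.54 ± 0.0628 and 2.37 ± 0.334. Tlr3 divided by Tlr4, a ratio added after the values were seen, was 0.218 ± 0.0117 and 1.27 ± 0.108. Ly96 divided by Tlr4 was 0.998 ± 0.1001 and 1.12 ± 0.254, with overlapping groups. In Ad-Con the levels ran in the order Cd14, Ticam1, Myd88, Tlr4, Ly96, Tlr2, Tlr5, Tlr3, Tlr6 and Tlr1, where the ranges of Cd14 and Ticam1 and those of Tlr4 and Ly96 overlapped. In Ad-PDK4 the order was Cd14, Myd88, Ticam1, Tlr3, Ly96, Tlr2, Tlr4, Tlr5, Tlr1 and Tlr6. There each of the genes from Ticam1 to Tlr4 overlapped the next, as did Cd14 with Myd88 and Tlr1 with Tlr6. Tlr3 went from below Tlr5 to an overlap with Ticam1.

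**Figure D3:**
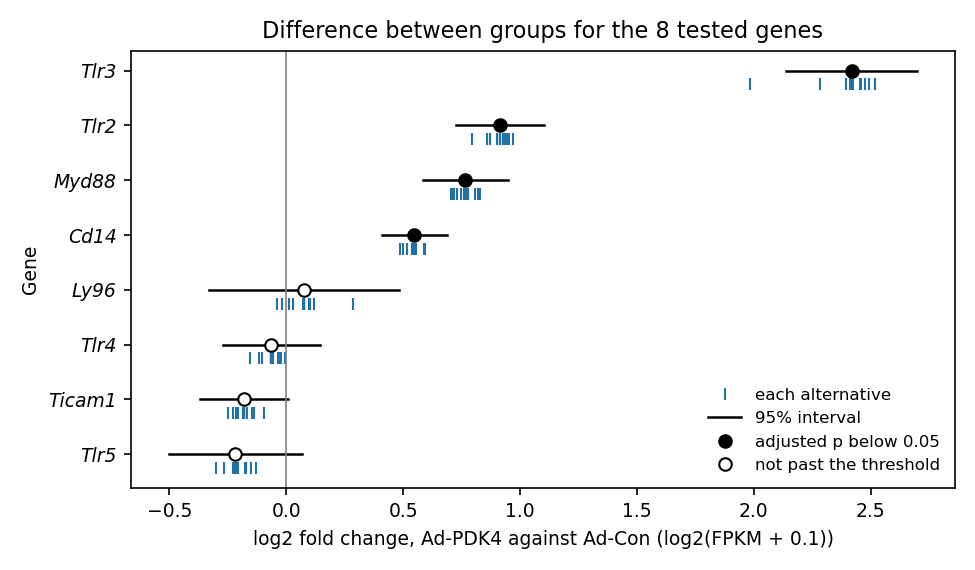
Difference of Ad-PDK4 against Ad-Con on the log2(FPKM + 0.1) scale for the 8 tested genes, with 95% intervals; filled points have an adjusted p below 0.05 and blue ticks are the values under each other setting. Tlr3 is at 2.42 and Tlr2, Myd88 and Cd14 between 0.55 and 0.91, with every tick above 0, while the intervals of Ly96, Tlr4, Ticam1 and Tlr5 include 0.

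The remaining Toll-like receptors of the mouse were near or at 0. None of the 6, Tlr7, Tlr8, Tlr9, Tlr11, Tlr12 and Tlr13, was high enough to test. Tlr8, Tlr11 and Tlr12 had 0 reads in all 6 libraries, which allows up to 3 reads in each. Tlr7, the endosomal receptor for single-stranded RNA, had 1, 2 and 3 reads in Ad-Con and 3, 7 and 8 in Ad-PDK4. Among the endosomal receptors, Tlr3 was the only gene above the filter on low values. Unc93b1, which carries endosomal receptors including TLR3 out of the endoplasmic reticulum, rose from 21.6, 19.1 and 19.0 FPKM to 34.2, 37.7 and 33.4 FPKM, a log2 fold change of 0.82 (adjusted p = 8.1e-05). In the list of 9 accessory and trafficking proteins it was the 1 gene of 5 tested that rose. Cnpy4 fell (log2 fold change -0.31, adjusted p = 0.013), a call that was lost without Ad-Con replicate 3, and the other 3 did not pass.

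Of 4 other adaptors and TIR proteins 2 were tested, and neither passed. Tirap, which bridges TLR2 and TLR4 to MyD88, was at 4.82 ± 0.347 FPKM in Ad-Con and 4.99 ± 0.369 FPKM in Ad-PDK4 (log2 fold change 0.05, adjusted p = 0.67). Sarm1, a TIR protein that restrains TRIF, was at 0.781 ± 0.0288 and 0.528 ± 0.173 FPKM (log2 fold change -0.53, adjusted p = 0.16). By limma-voom on the recovered reads Sarm1 passed as lower, with a log2 fold change of -0.65 (adjusted p = 0.034). Ticam2, which bridges TLR4 to TRIF, had at most 4 reads in any library, and Pik3ap1 also lay under the filter.

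Among kinases and ubiquitin enzymes that carry the signal from the adaptors, 19 of 20 were tested, 5 rose, 4 fell and 10 did not pass, with a median log2 fold change of 0.05. Both counts are close to the background of 21.8% higher and 20.8% lower, and after rescaling to TPM they were 7 and 3. Ikbke and Traf3, which act on the branch from TRIF to the interferon regulatory factors, rose by 0.69 (adjusted p = 1.7e-04) and 0.68 (adjusted p = 1.0e-03) on the log2 scale, and Chuk, an IkB kinase subunit, by 0.43 (adjusted p = 5.4e-03). Peli2, a ubiquitin ligase, was at 3.02 ± 0.419 FPKM in Ad-Con and at 1.39 ± 0.107 FPKM in Ad-PDK4 and fell by 1.06 on the log2 scale (adjusted p = 4.6e-04). Irak4, the kinase that binds MyD88 directly, fell by 0.29 on the log2 scale (adjusted p = 9.3e-03), and Tradd by 0.26 (adjusted p = 8.1e-03).

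Of 12 negative regulators 10 were tested and 8 rose, beside 21.8% of all tested genes, while Tollip and Il1rl1 did not pass. This list, like every list here, was written with earlier results of these data known, so its count is a description only. The median log2 fold change was 0.51, and 6 rose without Ad-Con replicate 3. Trim30a, an interferon-inducible protein that restrains TRAF6 signalling, rose from 4.92 ± 0.727 to 54.9 ± 7.11 FPKM (log2 fold change 3.46, adjusted p = 2.0e-06). Tnfaip3, the ubiquitin-editing enzyme A20, rose from 1.86 ± 0.116 to 8.71 ± 0.509 FPKM (log2 fold change 2.17, adjusted p = 1.0e-06). Zc3h12a, an RNase that degrades cytokine mRNA, rose from 1.67 ± 0.273 to 6.27 ± 1.03 FPKM (log2 fold change 1.85, adjusted p = 5.4e-05).

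Of the 7 transcription factors downstream 6 rose, beside 21.8% of all tested genes, with a median log2 fold change of 0.68. These factors were also listed with earlier results known, so the count is a description only. Irf7, a regulator of interferon genes, rose from 5.69 ± 0.794 to 184 ± 11.6 FPKM (log2 fold change 5.00, adjusted p = 8.5e-08), Irf5 by 2.02 (adjusted p = 1.5e-05) and Irf1 by 1.35 (adjusted p = 1.8e-06) on the log2 scale. Irf3, the factor directly below TRIF and TBK1, was at 11.5 ± 0.689 and 11.6 ± 0.617 FPKM and did not pass (log2 fold change 0.02, adjusted p = 0.88). The RNA level of a factor does not measure its activation.

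All genes tested among the usual targets rose, beside 21.8% of all tested genes. Both lists of targets were written with earlier results known, so their counts are descriptions only. Il6, Cxcl10 and Mx1 reached the minimum of 0.5 FPKM only through the Ad-PDK4 libraries. Their means in Ad-Con were 0.0499, 0.137 and 0.135 FPKM, so for them a rise was nearly fixed by being tested. Of 12 targets usually placed after MyD88 8 were tested and 8 rose, with a median log2 fold change of 1.85. Il6 had 4, 1 and 2 reads in Ad-Con and 114, 89 and 210 reads in Ad-PDK4 (log2 fold change 4.28, adjusted p = 3.7e-05), and the chemokine genes Cxcl1 and Ccl2 rose by 3.97 (adjusted p = 4.8e-05) and 3.89 (adjusted p = 7.0e-06) on the log2 scale. Cxcl2, under the filter, had 0 reads in each Ad-Con library and 34, 22 and 43 reads in Ad-PDK4, at least 10.5-fold higher against a floor of 3 reads per library. Tnf, Il1b and Il12b, cytokines that macrophages make in response to Toll-like receptor ligands, had at most 2 reads in any library.

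Of 10 targets usually placed after TRIF 9 were tested and 9 rose, each at least 2-fold, with a median log2 fold change of 4.89. Ccl5 rose from 0.766 ± 0.334 to 602 ± 24.6 FPKM (log2 fold change 9.51, adjusted p = 4.7e-06), the largest change of all pathway genes tested. Cxcl10 rose by 7.77 (adjusted p = 1.1e-07) and Rsad2 by 5.52 (adjusted p = 1.1e-04) on the log2 scale. Ifnb1, the interferon gene itself, had 0 reads in each Ad-Con library and 7, 5 and 5 reads in the Ad-PDK4 libraries, at least 1.85-fold higher against the same floor. Many of these targets also answer to cytosolic sensors and to interferon, so their levels do not tell which receptor was used. Over the lists of other pathway genes together, 60 of 80 genes were tested, 37 rose, 5 fell and 18 did not pass, beside 21.8% higher and 20.8% lower over all tested genes, with a median log2 fold change of 0.44. The 37 rises include Il6, Cxcl10 and Mx1, which were tested only through their level in Ad-PDK4. The 5 falls were 3 without Ad-Con replicate 3.

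**Figure D4:**
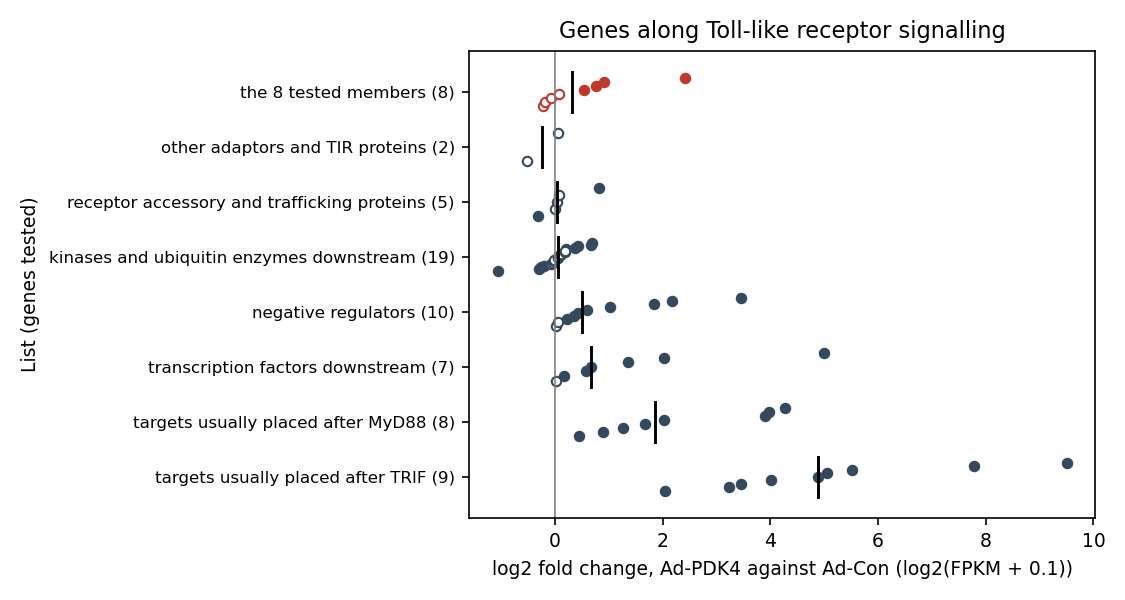
Difference of Ad-PDK4 against Ad-Con on the log2(FPKM + 0.1) scale for each tested gene (filled where the adjusted p is below 0.05, open otherwise), by list, with the list's median as a black bar and the number tested in brackets. Medians lie at 0.31 for the 8 tested receptors, co-receptors and adaptors, 0.05 for kinases and ubiquitin enzymes, 1.85 for targets placed after MyD88 and 4.89 for targets placed after TRIF.

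Since several of these genes are high in macrophages, markers of other cell types were read in the same libraries. Of 15 macrophage markers 7 had 0 reads in all libraries, namely Ptprc, Itgam, Tyrobp, C1qa, C1qb, C1qc and Cd163, and 10 had at most 3 reads in any library. Cd68 fell, with 416, 299 and 294 reads in Ad-Con and 111, 105 and 86 in Ad-PDK4, and Csf1r had 11, 23 and 35 reads against 56, 62 and 61. The summed level of the list was 15.0 to 18.1 FPKM in Ad-Con and 6.10 to 7.69 FPKM in Ad-PDK4, and most of it was Cd68. Of the 2 markers tested only Cd68 passed, as lower (adjusted p = 4.4e-04). Without Cd68 the other 14 summed to 1.77 to 2.12 FPKM in Ad-Con and 2.84 to 3.004 FPKM in Ad-PDK4. This remainder was higher in Ad-PDK4, as Tlr2, Tlr3, Myd88 and Cd14 were, and most of it was Lyz2 and Csf1r. Csf1r lay under the filter on low values, at 0.258 and 0.640 FPKM on average. Lyz2 was at 1.51 ± 0.195 and 1.98 ± 0.2501 FPKM, without overlap between groups (adjusted p = 0.079). The 8 endothelial markers summed to 0.634 to 0.827 FPKM in Ad-Con and 0.924 to 1.18 FPKM in Ad-PDK4. The 6 fibroblast markers summed to 1430 to 1555 FPKM and 738 to 805 FPKM, with 1 higher and 4 lower by the test. The 10 smooth muscle markers summed to 172 to 173 FPKM and 135 to 145 FPKM, with 1 higher and 2 lower of 5 tested. Of those under the filter, Mylk, Cnn1 and Des were lower in Ad-PDK4 without overlap between groups. Their means were 0.756, 0.466 and 0.186 FPKM in Ad-Con and 0.123, 0.247 and 0.0468 FPKM in Ad-PDK4. Myh11 and Tagln, also under it, overlapped between groups. The part of these differences in the receptor values was not tested.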

How the data were processed

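RNA-seq of 6 MASMC libraries was analysed from 1 deposited table. Per the submitters' processing notes, the tools named were CASAVA 1.8, fastp, HISAT2 2.0.5, featureCounts 1.5.0-p3 and DESeq2 1.20.0, with the build GRCm39. The deposited coordinates matched GENCODE release M21 on GRCm38 (98.3% of 54495 matched identifiers), so positions are given on GRCm38. The labels name a SMARTER library kit and the study's methods a NEBNext Ultra kit. The authors computed FPKM per gene and library without pooling replicates, and the deposited table also gives the gene length. FPKM times length gave whole reads for 100% of non-zero values (tolerance 0.01), and the authors' values already held a median-of-ratios scaling. These are called reads here.

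The test was limma 3.58.1 (R 4.3.3, trend and robust moderation) on log2(FPKM + 0.1) over 3 Ad-Con and 3 Ad-PDK4 libraries, without covariates, for 13423 genes with a mean of at least 0.5 FPKM, and adjusted by the Benjamini-Hochberg method. Every adjusted p is from limma. Groups came from the treatment label and replicate numbers from the title. The fit was tested on simulated data. Exact tests were two-sided. Alternatives were pseudocounts of 1 and 0.01, no filter or a minimum of 5 FPKM, TPM, quantile and median-of-ratios scaling, moderation without trend or robust, a replicate block, limma-voom on the recovered reads, and each library left out in turn.

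The 10 genes and all gene lists were chosen with earlier results of these data known, and the lists were written from general knowledge. Genes named are the 10, in each pathway list up to 3 rises and 3 falls with the largest change past the threshold, the 5 genes most like Tlr3, Pdk4 and Acta2. Any other gene is named outside this rule, with its values already known. Shared sequence was searched in exons at 98% identity over at least 75 bases. Upstream windows are from RefSeq. DESeq2, the study's tool, was not run here. The reads recovered from FPKM were tested by limma-voom as an alternative.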

Additional observations from a re-analysis of the deposited data

How the results depend on the processing

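Tlr3, Tlr2, Myd88 and Cd14 kept their direction and passed the test under all 16 alternatives, with log2 fold changes of 1.99 to 2.52, 0.79 to 0.97, 0.71 to 0.83 and 0.49 to 0.59. Tlr4 passed in 0 of 16 and Tlr5 in 0 of the 15 in which it was tested. After quantile normalization Ticam1 passed at -0.25, so that 1 member was lower. Leaving out 1 library moved Ly96 between -0.038 and 0.28: it was -0.019 without Ad-PDK4 replicate 1, -0.038 without replicate 3 and, without replicate 2, 0.28 and past the threshold. Leaving out 1 library gave 3 to 5 other pathway genes that fell, the lowest without Ad-Con replicate 3. The causes were not tested. Rescaling to TPM moved the median of all genes by 0.040 and quantile normalization by -0.032 on the log2 scale. Sarm1 passed as lower by limma-voom on the recovered reads (-0.65).

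The replicate numbers did not pair the libraries (correlations of the deviations of same-numbered libraries -0.046, -0.031 and -0.0013). With the replicate block, 4 members and 36 other pathway genes rose, Tlr3 stood at 2.42, and no call of a member changed. Depth limits Tlr1 and Tlr6, at 8 to 36 reads per library, and with 3 libraries a group an exact test cannot go below 0.1.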
